A study of Mus musculus with 7 samples.

Results

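The 8 genes described here carry antigen presentation through the major histocompatibility complex (MHC). B2m, H2-K1 and H2-D1 belong to class I, and H2-Aa, H2-Ab1, H2-Eb1, Cd74 and Ciita to class II. They were taken by name from the deposited count tables, as 8 of 25871 non-viral genes, and all 8 were present. They were selected on measured values, their snRNA-Seq levels in these cell types, libraries and vector bins, so these levels across cell types are given as a description, with no test. snRNA-Seq profiled nuclei from the visual cortex of male C57BL/6J mice aged 6 to 10 weeks, injected with a pool of AAV9 vectors (SST PESCA). The 10 libraries form 2 sets of 5. The design text assigns 5 libraries to each animal but names no animal for a library, so a difference between sets cannot be told apart from one between animals, injections or preparations. Every snRNA-Seq nucleus came from injected tissue, and no uninjected tissue was profiled this way. ATAC-Seq was available for SST, PV and VIP interneurons from the cortex of uninjected mice aged 6 to 12 weeks, with 2 samples per type, each from 1 animal by the study's methods. Those mice carried Sst-IRES-Cre, Pv-Cre or Vip-IRES-Cre together with the Cre-dependent nuclear envelope tag SUN1-2xsfGFP-6xMYC, and the purified nuclei were those that the Cre driver had tagged.

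MHC class I molecules display peptides made inside a cell to CD8 T cells. H2-K1 and H2-D1 encode the classical heavy chains, and B2m encodes the light chain that pairs with them. MHC class II molecules display peptides taken up from outside to CD4 T cells, and are made mainly by professional antigen presenting cells. H2-Aa encodes the alpha chain of I-A, H2-Ab1 its beta chain, H2-Eb1 the beta chain of I-E, Cd74 the invariant chain that guards the peptide groove, and Ciita the transactivator that switches class II genes on. In healthy brain tissue class I is low in neurons, and class II is found largely in activated microglia, border macrophages and immune cells that enter from the blood. The C57BL/6J strain carries an allele of the I-E alpha chain gene that is not transcribed, so the H2-Eb1 RNA counted here is made without its usual partner.

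On GRCm38 with the GENCODE M21 annotation, B2m lies on chromosome 2 from 122147686 to 122153083 on the plus strand and Ciita on chromosome 16 from 10480059 to 10528418 on the plus strand. The H2 genes share chromosome 17. H2-K1 spans 33996017 to 34000347 on the minus strand, H2-Ab1 34257689 to 34269419 on the plus strand, H2-Aa 34282744 to 34287823 on the minus strand, H2-Eb1 34305867 to 34316674 on the plus strand and H2-D1 35262730 to 35267499 on the plus strand.

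MHC genes are controlled from a compact promoter module just before the start site, which is why the bases before the RefSeq start are shown for the members found in the RefSeq promoter table (GRCm38.p6). That table matched 5 of the 8 members, and H2-Ab1, Cd74 and Ciita were not matched. Each line gives 250 bases, 5′ to 3′ on the strand of the gene. Capitals mark a core of the Y box (ATTGG or its reverse complement CCAAT), a core of the X2 box (TGACG or CGTCA) and a relaxed interferon response element (TTTCNNTT or AANNGAAA). The regions are chr2:122147437-122147686 on the plus strand for B2m, chr17:34000348-34000597 on the minus strand for H2-K1, chr17:35262844-35263093 on the plus strand for H2-D1, chr17:34287824-34288073 on the minus strand for H2-Aa and chr17:34305617-34305866 on the plus strand for H2-Eb1. The first 3 are class I and the last 2 class II. The region of H2-D1 lies inside the GENCODE span given above, since its RefSeq start is downstream of the GENCODE start.
B2m: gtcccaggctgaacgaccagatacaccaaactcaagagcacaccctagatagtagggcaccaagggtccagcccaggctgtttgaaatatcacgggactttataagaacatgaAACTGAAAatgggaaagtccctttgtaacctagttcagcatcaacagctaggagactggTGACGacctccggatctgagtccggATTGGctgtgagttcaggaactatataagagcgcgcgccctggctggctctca
H2-K1: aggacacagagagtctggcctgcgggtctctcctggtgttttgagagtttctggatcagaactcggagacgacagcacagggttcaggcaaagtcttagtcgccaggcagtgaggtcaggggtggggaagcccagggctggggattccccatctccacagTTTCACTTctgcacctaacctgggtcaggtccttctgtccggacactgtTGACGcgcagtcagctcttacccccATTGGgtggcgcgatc
H2-D1: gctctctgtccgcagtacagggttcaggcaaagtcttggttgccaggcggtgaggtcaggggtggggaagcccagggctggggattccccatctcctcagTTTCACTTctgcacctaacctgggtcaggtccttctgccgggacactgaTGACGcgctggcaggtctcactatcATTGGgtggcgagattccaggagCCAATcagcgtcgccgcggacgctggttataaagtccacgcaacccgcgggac
H2-Aa: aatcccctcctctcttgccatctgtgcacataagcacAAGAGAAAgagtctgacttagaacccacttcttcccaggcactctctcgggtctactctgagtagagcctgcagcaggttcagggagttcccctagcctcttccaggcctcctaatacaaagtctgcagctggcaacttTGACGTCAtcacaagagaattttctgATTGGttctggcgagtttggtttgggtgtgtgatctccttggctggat
H2-Eb1: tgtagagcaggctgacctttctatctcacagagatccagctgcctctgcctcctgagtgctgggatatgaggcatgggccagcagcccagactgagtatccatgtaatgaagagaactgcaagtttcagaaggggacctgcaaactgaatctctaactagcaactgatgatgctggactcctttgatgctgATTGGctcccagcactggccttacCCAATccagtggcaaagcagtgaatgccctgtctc

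In the window from 250 bases before to 50 bases after the start, ATTGG or CCAAT was found in all 5 promoters, against 37.4% of the 32851 promoters in the table. TGACG or CGTCA was found in 4 of the 5, all but H2-Eb1, against 20.8% of all promoters. The relaxed interferon element was also found in 4 of the 5, all but H2-Eb1, against 23.9%. The kappaB core GGATTCC was found in H2-K1 and H2-D1 alone of the 5, against 3.79%. All motifs were searched on both strands. Where an X2 core lay before the start, it was farther from it than an ATTGG core, which began 53 bases before the start of B2m, 16 before that of H2-K1, 76 before that of H2-D1, 48 before that of H2-Aa and 59 before that of H2-Eb1. These distances count from the RefSeq starts, so they shift with the annotation, and that of H2-D1 lies inside the GENCODE span of the gene. The windows of H2-K1 and H2-D1 were 91.2% identical over 239 aligned bases, and the other 9 pairs were between 68.9% and 76.3%. Gaps were left out of these shares, 122 bases for the first pair and 84 to 118 for the others. No unrelated promoters were aligned for comparison, so the lower values are not read as a likeness. These matches describe the letters and not bound sites.

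Of 47348 barcodes, 32335 held over 200 non-viral UMIs and entered as nuclei. The libraries held 2457 to 3629 kept nuclei each, with a median depth per nucleus between 612 and 876 UMIs. A nucleus was gated to a cell type by its marker panel, with at least 2 panel genes detected and more than for any other panel, which placed 19848 nuclei. The gates held 405 microglia, 187 lymphocytes, 578 endothelial cells, 1767 astrocytes, 12664 excitatory and 2253 inhibitory neurons, and no panel contained a member gene. Nuclei of 2 cells were not removed by a caller. Instead, nuclei with at least 2 genes of another panel were counted. They were 62.3% of the endothelium gate, 58.7% of mural cells and fibroblasts, 20.5% of microglia, 17.9% of astrocytes, 9.63% of lymphocytes and 5.20% of excitatory neurons. All 15 genes of the microglia panel were detected in the microglia gate, at 191 UMIs per 10000 in sum, and no other panel exceeded 13.1 there. The gate was set by this panel, so these levels follow from the gating and do not measure its purity. The panel also held Lyz2, which is on the monocyte and border macrophage list used below. Of 25866 barcode names, 5476 occurred in more than 1 library. Levels below are UMIs of a gene per 10000 non-viral UMIs summed over a gate, with exact Poisson 95% intervals that cover the counting of UMIs only. UMIs of 1 nucleus are not independent, and 1 sample of libraries allows no test between conditions.

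All 8 members were far higher in microglia-gated nuclei than in neurons, and the class I members were also high in lymphocytes and endothelium. In microglia the class I members together stood at 68.2 UMIs per 10000 (64.9 to 71.5) and the class II members at 155 (150 to 160). Neurons, excitatory and inhibitory together, were at 1.60 (1.54 to 1.66) for class I and 0.251 (0.228 to 0.275) for class II. The microglia level was therefore 42.7 times the neuron level for class I (40.2 to 45.4) and 618 times for class II (560 to 683). With a pseudocount of 0.1 per 10000, 8 of the 8 members were at least 4-fold higher in microglia than in neurons, where 3.99% of 14713 genes with at least 50 UMIs were. Ciita, with 55 UMIs in kept nuclei, reached the limit of 50 only through the 15 in the microglia gate, so its call adds no support. In lymphocytes 3 of 3 class I members and 1 of 5 class II members passed that fold, against 4.57% of all genes. In endothelium 3 of 3 and 4 of 5 did, against 6.22%, and in astrocytes 2 of 3 and 3 of 5 did, against 3.47%. The class II members among these rest on few nuclei. In endothelium 6 of 578 nuclei held 341 of 365 class II UMIs, and in astrocytes 9 of 1767 held 283 of 412, without which the levels were 0.272 and 1.18 per 10000, against 0.107 in neurons treated alike. The median fold over all genes lay between 0.803 in lymphocytes and 0.899 in astrocytes.

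B2m, the shared light chain, was the most widely detected member, with 7664 UMIs in 3956 kept nuclei. Its level was 36.7 per 10000 in lymphocytes (33.4 to 40.3), 34.0 in microglia (31.7 to 36.3), 20.2 in endothelium (19.3 to 21.1), 8.64 in mural cells and fibroblasts, 5.58 in astrocytes (5.15 to 6.04), 5.37 in oligodendrocytes, 5.15 in oligodendrocyte precursors, 1.08 in excitatory neurons (1.03 to 1.14) and 1.01 in inhibitory neurons. Lymphocytes and microglia had overlapping intervals, as did the 3 glial gates at the middle of the order and the 2 neuronal gates at its end. In microglia of library set 1 the level of B2m was 39.5, 50.4, 38.6, 41.1 and 50.7 in libraries 1 to 5, and in set 2 it was 31.1, 27.8, 12.8, 14.7 and 16.6. Every library of set 1 thus lay above every library of set 2. In endothelium the 10 libraries ran from 14.6 to 23.2 and overlapped between sets, and in excitatory neurons they ran from 0.973 to 1.26.

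H2-K1, a classical heavy chain, was at 34.8 per 10000 in lymphocytes (31.6 to 38.3), 21.2 in microglia (19.4 to 23.1), 7.25 in endothelium (6.70 to 7.83), 3.84 in astrocytes, 0.228 in inhibitory and 0.0976 in excitatory neurons. It spanned the widest range of the class I members, at 303 times the neuron level in lymphocytes and 185 times in microglia. Its microglial levels were 30.4, 29.6, 25.7, 19.1 and 30.3 in set 1 and 22, 17.9, 10.6, 8.19 and 9.72 in set 2, so that the sets overlapped only through library 4 of set 1 and library 1 of set 2. H2-D1, the other heavy chain, was at 14.8 in lymphocytes (12.7 to 17.2), 13 in microglia (11.6 to 14.5), 6.47 in endothelium (5.96 to 7.02), 1.76 in astrocytes, 0.409 in excitatory and 0.397 in inhibitory neurons. Lymphocytes and microglia did not differ beyond their intervals for H2-D1, nor did the neuronal gates. Its microglial levels were 13.2, 13, 16.9, 15.9 and 15.5 in set 1 and 15.6, 11.1, 5.03, 10.6 and 8.57 in set 2, with library 1 of set 2 inside the range of set 1.

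**Figure D1:**
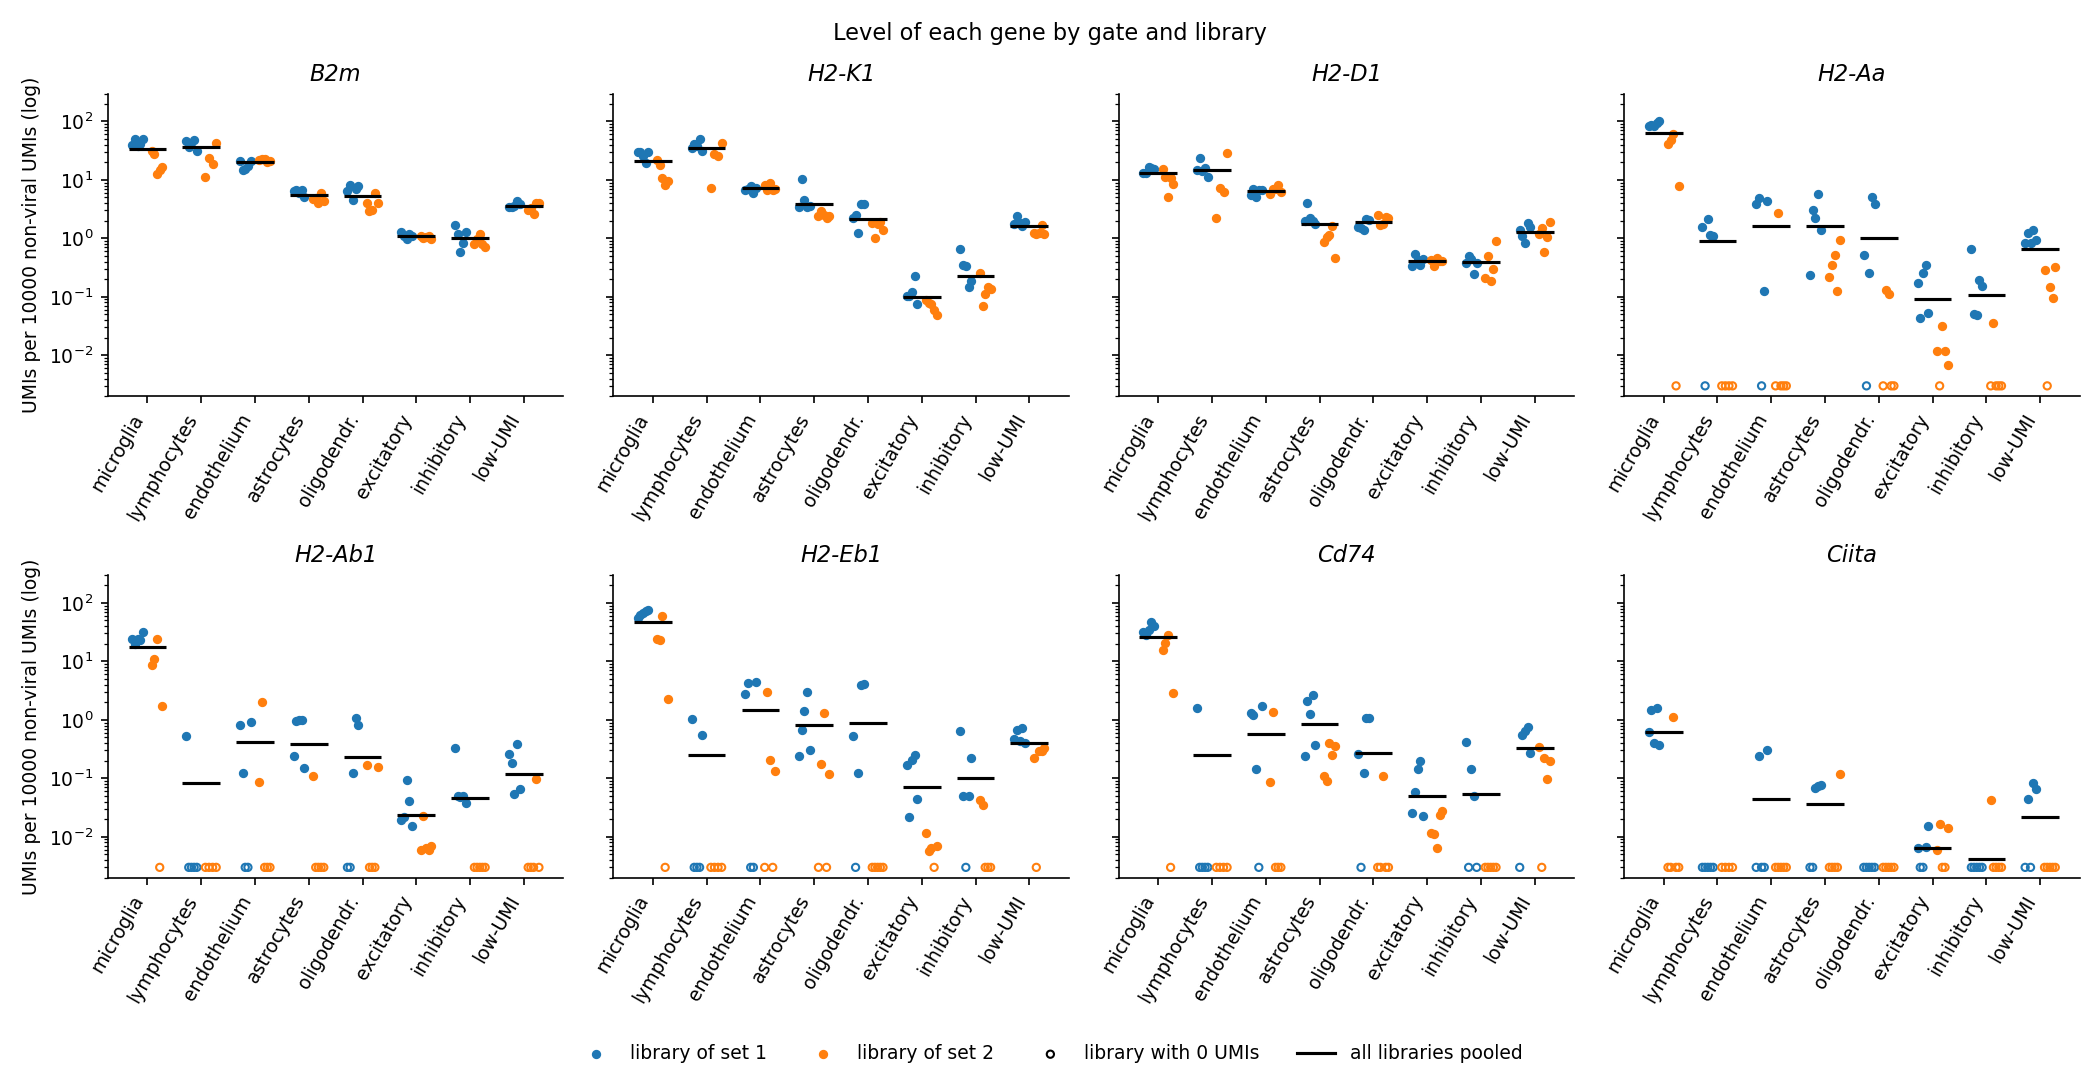
UMIs of each member per 10000 non-viral UMIs (log axis) in each gate, with points for single libraries coloured by library set and bars for the level over all libraries. Open points mark libraries with 0 UMIs. The class I members are high in lymphocytes, microglia and endothelium and lowest in neurons, and the class II members stand out in microglia.

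The class II chains and Cd74 were concentrated in the microglia gate. H2-Aa was at 63.8 per 10000 there (60.7 to 67.0), H2-Eb1 at 46.6 (43.9 to 49.4), Cd74 at 26.3 (24.3 to 28.4), H2-Ab1 at 17.7 (16.1 to 19.5) and Ciita, the transactivator, at 0.614 (0.343 to 1.01) from 15 UMIs in 7 nuclei. The gate held 49.5% of all class II UMIs of kept nuclei with 0.858% of the non-viral UMIs, and a further 29.8% were in ungated nuclei. Class I was spread more widely, with 22.5% of its UMIs in endothelium, 18.2% in excitatory neurons, 16.1% in ungated nuclei and 12.4% in microglia. Lymphocytes, with class I at 86.4 (81.3 to 91.8), had class II at only 1.48 (0.879 to 2.34), or 18 UMIs in 7 of 187 nuclei (0.879 without library 1 of set 1), and 0 UMIs of Ciita. The lymphocyte panel held genes of T, NK and cytotoxic cells and no B cell gene, so these values do not describe B cells. The makeup of class II in microglia was 41.1% H2-Aa, 30.1% H2-Eb1, 17.0% Cd74 and 11.4% H2-Ab1. In set 2 alone the makeup was 41.2%, 29.0%, 17.5% and 11.9%, close to that of set 1 at 41.1%, 30.3%, 16.8% and 11.3%, although the levels differed.

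Over all kept nuclei, class II UMIs came from few nuclei. Of 32335 kept nuclei 675 had any, and 163 with at least 10 held 86.8% of the 7658 class II UMIs. The highest nucleus had 205. Of the 163, 129 were in set 1 and 34 in set 2, and 82 were in the microglia gate, 58 ungated, 9 in astrocytes and 6 in endothelium. In microglia 147 of 405 nuclei (36.3%) had a class II UMI, 109 had at least 2 of the 4 genes H2-Aa, H2-Ab1, H2-Eb1 and Cd74, and 76 had all 4. Thinned to 300 UMIs, which left 258 nuclei, the share with a class II UMI was 35.7%, against 0.350% of 14303 neurons treated alike, where the unthinned share was 0.972%. The microglia class II level is thus an average over many nuclei with none and some with many, with a median of 12 UMIs among the nuclei that had any. Class I was less uneven. The highest nucleus had 101 class I UMIs, and the 230 nuclei with at least 10 held 29.0% of them.

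Between library sets, class II in microglia differed more than class I. Class II stood at 194.5, 198.9, 211.1, 237.8 and 250.2 per 10000 in set 1, and 24 of 51, 24 of 43, 23 of 41, 23 of 52 and 26 of 46 nuclei had a UMI. In set 2 it was 88.8, 102.6, 173.1, 0 and 14.9, with a UMI in 9 of 35, 9 of 41, 6 of 31, 0 of 37 and 3 of 28 nuclei. The sets did not overlap, and set 2 was itself uneven, with library 4 at 0 among 29321 non-viral UMIs and library 3 resting on 6 nuclei. Summed over a set, class II was 218 in set 1 and 67.7 in set 2, a ratio of 3.22 (2.97 to 3.50), and the ratio was 3.21 for H2-Aa, 3.06 for H2-Ab1, 3.36 for H2-Eb1 and 3.10 for Cd74. Without library 3 of set 2 the ratio was 5.24 for H2-Ab1, 5.97 for H2-Eb1 and 4.80 for class II. Class I was 83.1, 93.0, 81.2, 76.0 and 96.6 in set 1 and 68.7, 56.8, 28.5, 33.4 and 34.9 in set 2, a ratio of 1.95 (1.75 to 2.17), with 2.17 for B2m, 2.02 for H2-K1 and 1.42 for H2-D1. Again no library of set 2 reached set 1. In endothelium the class I ratio lay on the other side of 1, at 0.860 (0.800 to 0.925). In lymphocytes it was 1.75 (1.47 to 2.09), but set 2 held 27 of the 187 lymphocyte nuclei and its library 2 none. The lymphocyte level of set 2, 54.9, was 33.0 without its library 5 and 86.3 without its library 1, which gave ratios of 2.91 and 1.11. In neurons class I differed little between sets, at a ratio of 1.12 (1.04 to 1.20), whereas class II was 0.481 in set 1 and 0.0487 in set 2. The 5 neurons with at least 10 class II UMIs were all in set 1 and held 255 of its 399. Without them set 1 was at 0.174 (0.146 to 0.204), against 0.0487 (0.0357 to 0.0650). Microglia without such nuclei were at 16.2 in set 1 and 3.53 in set 2.

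**Figure D2:**
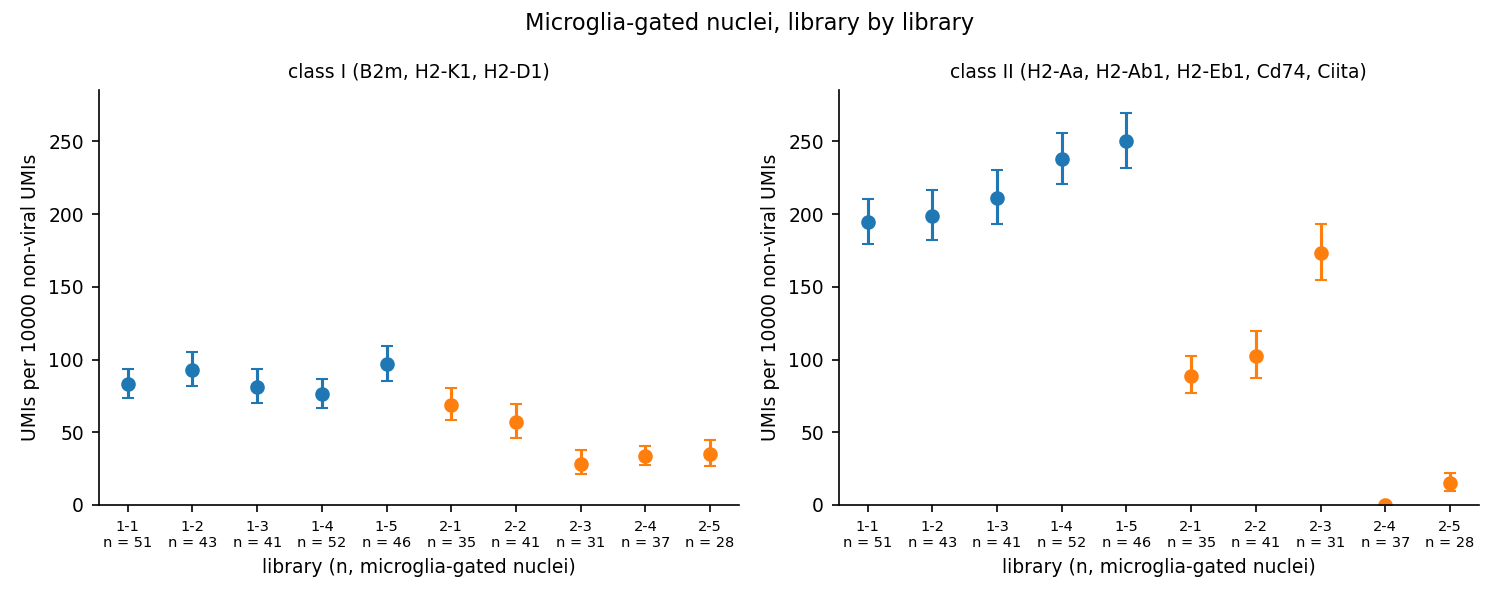
Class I and class II UMIs per 10000 non-viral UMIs in the microglia gate of each library, with exact Poisson 95% intervals and the number of nuclei. All 5 libraries of set 1 lie above all 5 of set 2 in both panels, and class II is 0 in library 4 of set 2.

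The microglia gate was not uniform in its markers, and the class II level moved with them. On a list of homeostatic microglia genes and a list of monocyte and border macrophage genes, 203 nuclei had a UMI of the first only, 87 of the second only, 97 of both and 18 of neither. Class II was 20.9 per 10000 in nuclei with the homeostatic list only (18.3 to 23.8), 246 in nuclei with both (235 to 258) and 323 in nuclei with the monocyte list only (308 to 339). Class I was 27.1 (24.1 to 30.3), 105 (98.2 to 113) and 104 (95.2 to 113) in the same order. In nuclei with only the homeostatic list the class II level was 43.4 in set 1 and 2.32 in set 2, but library 1 of set 1 supplied 141 of the 217 UMIs of its set from 5 nuclei. Without that library the level was 21.7 in set 1 and 9.43 over both sets. With Lyz2 left out of the monocyte list, 247 nuclei had the homeostatic list only and their class II level was 33.9. Nuclei with a UMI of the monocyte list were 123 of 233 in set 1 (52.8%, exact binomial interval 46.2 to 59.3) and 61 of 172 in set 2 (35.5%, 28.3 to 43.1), at median depths of 415 and 348 UMIs. By library they were 51.0, 58.1, 51.2, 51.9 and 52.2% in set 1 and 45.7, 39.0, 32.3, 24.3 and 35.7% in set 2, so that the sets did not overlap, while the level of the list was 70.4 and 71.0 per 10000. Within nuclei with both lists class II was 323 in set 1 and 94.1 in set 2, and with the monocyte list only it was 345 and 275, the last 166 without library 3 of set 2. The part of this shift in the set difference was not tested. The label microglia thus covers nuclei with monocyte or macrophage genes, which carried most of the class II UMIs of the gate.

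Read from the other side, the 82 microglia-gated nuclei with at least 10 class II UMIs had the monocyte list at 117 per 10000 and in 78 nuclei, with 606 UMIs of Lyz2, the lysozyme of myeloid cells, and 91 of Ccr2, the chemokine receptor of blood monocytes. Single genes of these lists were named after their values were seen. In the 258 nuclei with no class II UMI the monocyte list was at 42.5 and in 69 nuclei, with 498 UMIs of Lyz2. The homeostatic list stood at 12.5 in the 82 nuclei and 52.5 in the 258. Dendritic cell genes gave 40 UMIs in 12 of the 82 nuclei, of which 30 were of Itgax, and genes of NK and cytotoxic cells 54 UMIs in 23 nuclei, of which 51 were of Ccl5. Class I was 34.3 in nuclei without class II (31.3 to 37.4), 79.2 in those with 1 to 9 UMIs and 133 in those with at least 10 (124 to 142). In set 1 these values were 35.1, 71.3 and 149, and in set 2 they were 33.7, 125 and 74.3, so that the order held in set 1 but not in set 2. Without class II, the gate had nearly the same class I level in both sets. Outside the gate, the 58 ungated nuclei with at least 10 class II UMIs had 99 UMIs of the monocyte and border macrophage list in 31 nuclei, among them 58 of Plac8 and 28 of Ccr2. They also had 122 UMIs of B cell genes in 16 nuclei, among them 73 of Ighm and 24 of Cd79a, and 50 UMIs of dendritic cell genes in 21 nuclei, among them 15 of Xcr1 and 11 of Ccr7. Genes of NK and cytotoxic cells gave 44 UMIs in 10 nuclei, of which 36 were of Ccl5.

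Ciita had 55 UMIs in 41 kept nuclei. Another class II UMI was present in 23 of the 41 (56.1%, exact binomial interval 39.7 to 71.5), against 1.96% of the nuclei without Ciita, whose median depth was 711 UMIs against 1278. In the microglia gate this was 7 of 7, against 35.2% of the other nuclei, and in ungated nuclei 10 of 15. In neurons it was 1 of 11, so that most Ciita UMIs in neurons stood without a class II chain.

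Among lymphocytes, class I was higher in nuclei with cytotoxic genes. Nuclei with genes of the T cell list only (75) had class I at 70.1 per 10000 (63.1 to 77.7), those with genes of both lists (48) at 102 (91.1 to 114), and those with NK and cytotoxic genes only (46) at 117 (104 to 131). B2m was 26.6, 42.3 and 54.4 in the same order. The interval of T cell nuclei met neither of the others, whereas the other 2 overlapped. By library, class I was 95.8, 100.8, 94.5, 115.2 and 74.0 in set 1, and 20.7, 58.3, 50.4 and 113.9 in the 4 libraries of set 2 that had lymphocytes, each from 11 nuclei or fewer.

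Endothelium had class I at 33.9 per 10000 (32.7 to 35.1), with a UMI in 80.1% of nuclei, and 55.3% after thinning to 300 UMIs. The 10 libraries were 33.5, 28.6, 28.5, 30.0 and 34.8 in set 1 and 35.5, 36.7, 39.2, 35.3 and 34.6 in set 2. In the 26 endothelial nuclei without a UMI of any other panel, class I was 38.9 and class II 0. Astrocytes had class I at 11.2 (10.6 to 11.8) and class II at 3.72, and in the 744 astrocytes without a UMI of another panel these were 11.9 and 0.760, the latter 0.432 without library 2 of set 1. Oligodendrocytes were at 9.42 for class I and 2.40 for class II, of which 2 nuclei held 151 of 176 UMIs. Their class II level was 1.43 without library 4 of set 1, and 0.342 without these 2 nuclei. Oligodendrocyte precursors were at 12.1 and 0.0971, the latter from 1 UMI. Mural cells and fibroblasts, which line and surround vessels, were at 16.9 for class I and 4.32 for class II (3.69 to 5.03), and their class II did not rest on few nuclei. Its 168 UMIs came from 60 of 356 nuclei, of which 1 had at least 10, and 4.04 (3.43 to 4.73) was left without that nucleus. However, 58.7% of the gate had at least 2 genes of another panel, so these UMIs cannot be assigned to mural cells and fibroblasts alone. The 13 nuclei of this gate without a UMI of another panel held 1 class II UMI among them, a level of 2.14 (0.0542 to 11.9) that sets no order. The 0 UMIs in 26 endothelial nuclei allow a class II level of up to 3.00 (3 UMIs), which does not set them apart from the 0.272 of the gate without its 6 nuclei.

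In neurons the class I level of 1.60 per 10000 was below the 6.54 (6.17 to 6.92) of the barcodes with 200 UMIs or fewer, which hold free RNA and fragments of all cells. A UMI of class I in a neuron can therefore not be read as expression from its level alone. Class I was detected in 14.8% of excitatory neurons at a median depth of 1097 UMIs and in 5.22% of these low barcodes at a median depth of 129. Class II was at 0.251 in neurons against 1.53 in low barcodes (1.36 to 1.72). It was concentrated, since 5 of the 14917 neurons held 255 of the 445 class II UMIs (57.3%). Without nuclei that had at least 10 class II UMIs it was 0.107 in neurons (0.0924 to 0.123) and 1.10 in low barcodes (0.957 to 1.27), and no expression is read from such a level. In neurons without a UMI of any other panel class II was 0.0759 and class I 1.54.

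The 2 heavy chains did not keep the same ratio in neurons as in the low barcodes. H2-D1 made up 78.0% of H2-D1 and H2-K1 UMIs in neurons (723 of 927, exact binomial interval 75.2 to 80.6) and 44.2% in low barcodes (236 of 534). Within neurons it was 80.7% in excitatory (629 of 779) and 63.5% in inhibitory nuclei (94 of 148). The other gates lay lower, apart from oligodendrocyte precursors at 66.7% (48 of 72), with 47.2% in endothelium, 46.8% in oligodendrocytes, 37.9% in microglia, 31.5% in astrocytes and 29.9% in lymphocytes. By library the share in neurons was 67.4, 79.8, 74.0, 60.6 and 81.9% in set 1 and 78.8, 82.0, 83.7, 84.4 and 88.6% in set 2, and that in low barcodes was 44.3, 31.2, 31.3, 52.4 and 45.1%, then 48.8, 55.8, 32.0, 38.6 and 61.7%. The share in neurons was above that in low barcodes in 10 of 10 libraries. Between sets, H2-K1 in neurons had a ratio of 1.91 (1.43 to 2.58) and H2-D1 of 1.01 (0.874 to 1.18). Of the 50-base words in the last 500 transcript bases of H2-D1, 43 of 451 also occur in transcripts of other genes. Among these genes are AC132307.5, Adsl and Kcnk4, and H2-K1 shares 2 words with H2-D1. How the authors' counting treated reads of shared words was not tested, so H2-D1 counts are uncertain to that extent.

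**Figure D3:**
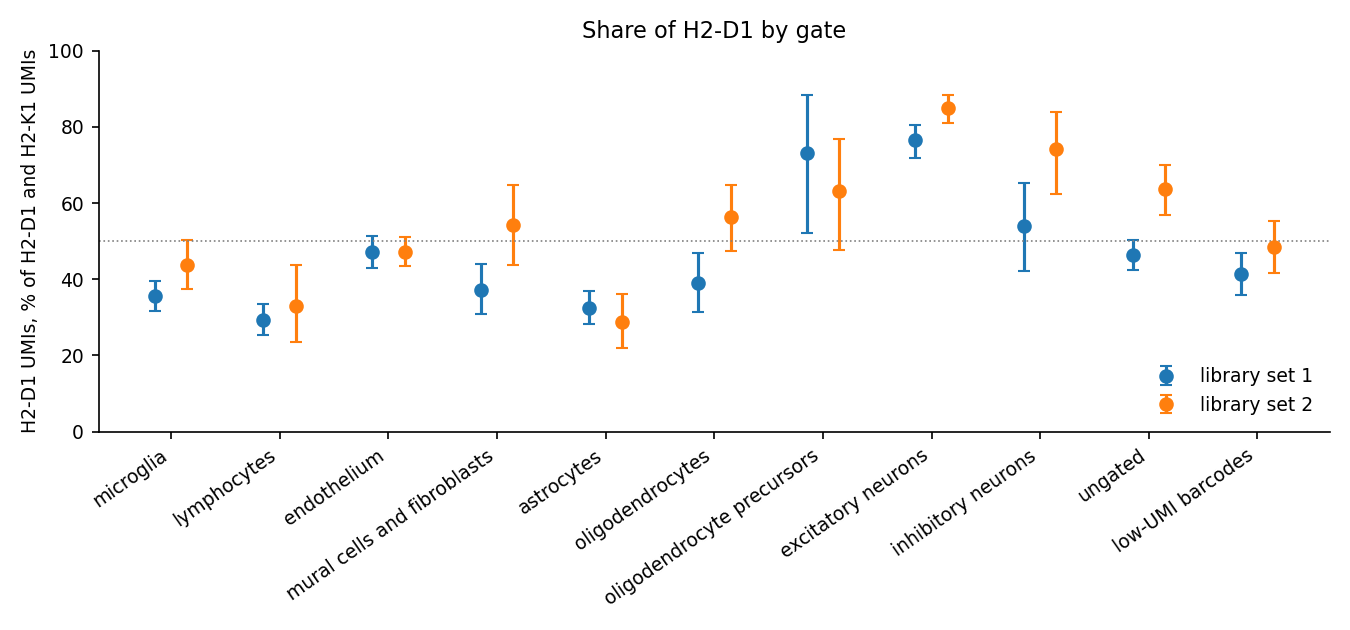
Share of H2-D1 among UMIs of H2-D1 and H2-K1 (percent) in each gate and in barcodes with 200 UMIs or fewer, for each library set, with exact binomial 95% intervals and a dotted line at 50%. Excitatory neurons have the highest share and lymphocytes and astrocytes among the lowest.

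Among interneurons, nuclei with Sst UMIs (714) had class I at 1.58 per 10000 (1.3 to 1.89), those with Pvalb (473) at 1.17 (0.921 to 1.48) and those with Vip (340) at 2.22 (1.68 to 2.86). B2m was 1.10, 0.708 and 0.993, and H2-D1 0.395, 0.322 and 0.535. H2-K1 was 0.0817, 0.145 and 0.688, and the value in Vip nuclei (0.408 to 1.09) comes with the lowest median depth, 676.5 UMIs against 902 in Sst and 1231 in Pvalb nuclei. For class I the intervals of Sst nuclei overlapped those of both other types, whereas those of Pvalb and Vip nuclei did not overlap.

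Among the genes that feed or load class I molecules, 6 of 14 were at least 4-fold higher in microglia than in neurons, 8 in lymphocytes, 6 in endothelium and 3 in astrocytes, with median folds of 2.39, 5.60, 1.84 and 1.65. Over all 14713 genes tested the shares were 3.99%, 4.57%, 6.22% and 3.47% in the same order, and they apply to the other gene lists below as well. Highest in microglia were Calr, a chaperone of the endoplasmic reticulum, at 7.08 per 10000, the peptide editor Tapbp at 5.24, the chaperone Canx at 2.99 and the immunoproteasome subunit Psmb8 at 2.78. Calr stood at 4.71 in neurons (fold 1.49) and Canx at 3.40 (fold 0.882), while the fold was 10.5 for Tapbp and 24.2 for Psmb8, and 11.9 and 34.0 in lymphocytes. Of the other class I genes 7 of 9 had enough UMIs, and 1 passed in microglia and 1 in lymphocytes. Among them H2-Q4 was unusual, at 44.9 in neurons and 22 in microglia, ahead of H2-T23 at 2.16 and 4.75. Genes of the H2-Q and H2-T clusters have near-identical copies, so their counts are uncertain.

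A list of genes that act beside class II, in peptide loading, co-stimulation or turnover, held 12 genes of which 9 could be compared. Of the 9, 6 were at least 4-fold higher in microglia but 1 in lymphocytes and 0 in endothelium and astrocytes. The 6 were the loading genes Ctss, Lgmn, H2-DMa and H2-DMb1 and, named after their values were seen, the co-stimulatory molecules Cd86 and Cd40 at folds of 8.81 and 6.61. Cd86, with 71 UMIs in kept nuclei, reached the limit of 50 only through those in the microglia gate, so its call adds no support. The protease Ctss, which trims the invariant chain, was at 37.8 per 10000 in microglia and 0.0366 in neurons, and Lgmn, another lysosomal protease, at 15.1 and 1.17. The chains of the peptide exchange factor, H2-DMa and H2-DMb1, were at 2.78 and 2.05 in microglia and at 0.106 and 0.00789 in neurons. In lymphocytes Ctss alone passed, at a fold of 17.0, and the median fold of the list was 0.927 there against 8.81 in microglia. Of 13 regulators 4 passed in microglia, 5 in lymphocytes, 2 in endothelium and 0 in astrocytes. The interferon receptor chain Ifngr1 was at 3.31 in microglia and 8.49 in lymphocytes. The interferon factors Irf1 and Irf8 were at 2.13 and 2.09 in microglia. Ifng, chosen after its values were seen, was at 3.87 in lymphocytes and 0 in microglia and endothelium. With 55 UMIs in kept nuclei, Ifng reached the limit of 50 only through the lymphocyte gate, so its call there adds no support.

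By the pattern over 18 points, 9 gates in each library set, the genes most like class I among 12882 genes with at least 100 UMIs, leaving out members and panel genes, included Actb (Pearson r 0.935), Syngr2 (0.931), Rpl18 (0.925) and Rps23 (0.921). Those most like class II were Skap2 (0.887), Myd88 (0.885), Lrch4 (0.884), Runx1 (0.873) and Mpeg1 (0.869). The points share libraries and depth, and these values are descriptions.

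Vector UMIs per nucleus allowed the members to be followed from nuclei with none to nuclei with many, at an equal depth of 400 non-viral UMIs per nucleus. In excitatory neurons B2m was 1.28 per 10000 with 0 vector UMIs, 1.23 with 1 to 4, 1.18 with 5 to 19 and 1.00 with 20 or more, from 61, 176, 178 and 127 UMIs. H2-D1 was 0.733, 0.575, 0.337 and 0.386, from 35, 82, 51 and 49 UMIs. Between the highest and the lowest bin the ratio was 0.783 for B2m (0.572 to 1.08) and 0.526 for H2-D1 (0.334 to 0.837). Only these 2 members had the 50 UMIs needed for a call. With the pseudocount, 1 of the 2, H2-D1, was at least 1.5-fold lower in the highest bin, at 0.583, where 3.12% of 6770 genes were, and 0 were at least 1.5-fold higher, where 4.09% were. By set the intervals overlapped. H2-D1 had a ratio of 0.929 in set 1 (0.407 to 2.48) from 7 UMIs in the lowest bin and 0.323 in set 2 (0.157 to 0.634), and class I in all neurons 0.999 in set 1 (0.661 to 1.56) and 0.540 in set 2 (0.388 to 0.751), with 0.746 over both (0.590 to 0.949). Of the sets, set 2 alone had intervals below 1. In inhibitory neurons the class I ratio was 1.45 (0.619 to 4.14), from 6 and 49 UMIs.

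The bins differed in more than vector UMIs. The bin of excitatory nuclei without vector held 346 of set 1 and 848 of set 2, and the highest bin 1862 and 1314. Ratios over both sets therefore mix vector UMIs with library set. Before thinning, the median depth of excitatory nuclei was 922 in the bin without vector and 1435 in the highest bin. After thinning, the panel of excitatory neurons was 47.5 per 10000 in the lowest and 38.7 in the highest bin, that of endothelium 0.796 and 1.17, that of microglia 0.775 and 0.661 and that of inhibitory neurons 2.16 and 2.61. Their part in the values of the members was not tested. Of the class I loading genes 1 of 5 with enough UMIs was at least 1.5-fold higher in the highest bin, where 4.09% of 6770 genes were. It was Tapbp, at 0.230 per 10000 in the lowest and 0.496 in the highest bin, a fold of 1.80. No interval or split by set is given for Tapbp, and a link to the vector was not tested.

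In microglia class I was 72.4, 89.9, 63.6 and 36.1 per 10000 over the 4 bins, of 39, 74, 55 and 27 nuclei, and class II 178, 238, 147 and 77.8. The ratio of the highest to the lowest bin was 0.499 for class I (0.337 to 0.723) and 0.436 for class II (0.338 to 0.559). The class II ratio was 0.749 when nuclei were thinned to 300 UMIs and 0.314 in nuclei of 400 to 800 UMIs without thinning. In set 1 the ratios were 0.301 and 0.349, and in set 2 0.886 and 0.165, the last from 66 and 5 UMIs. The bins of microglia are small and class II sits in few nuclei, so these ratios compare a handful of nuclei. Class I in endothelium was 35.1, 30.5, 28.6 and 30.6 over the same bins, and in astrocytes 9.62, 12.2, 12.9 and 11.9.

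**Figure D4:**
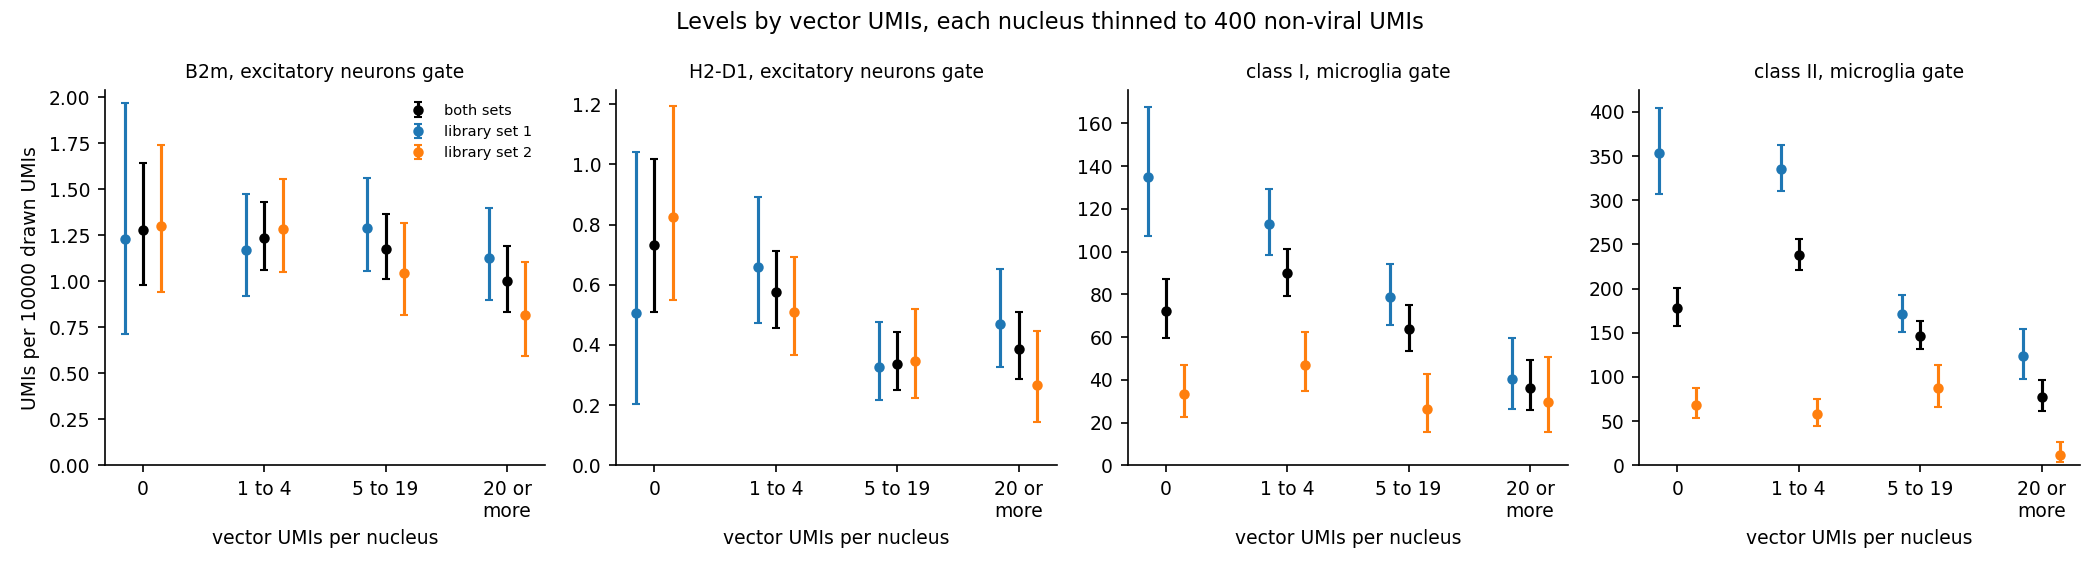
B2m and H2-D1 in excitatory neurons and class I and class II in microglia, in UMIs per 10000 non-viral UMIs with each nucleus thinned to 400 UMIs, by bins of vector UMIs per nucleus (0, 1 to 4, 5 to 19, 20 or more), for both sets together and for each set, with exact Poisson 95% intervals. H2-D1 goes from 0.733 to 0.386 over both sets, and the points of set 1 and set 2 take different courses.

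ATAC-Seq asked whether the chromatin near the start sites of the members differed in SST interneurons from that in PV and VIP interneurons. Of 323369 reference regions, 9 lay within 1000 bases of a start site of 7 of the members, and none of H2-Aa. With 1801883 to 2256073 reads in regions per sample, 3 of the 9 passed the filter on low counts, and 0 of the 3 were called by edgeR, where 8.15% of the 40338 regions tested were higher and 5.41% lower in SST at a false discovery rate of 5%. Without adjustment, 6116 regions had a p under 0.05 in the higher and 4820 in the lower direction. Counts from bulk nuclei cannot tell fewer open nuclei from less opening in each nucleus.

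The region at B2m (chr2:122147359-122148163) overlaps an exon of the gene and had a peak in all 6 samples, with −log10 q values from 64.0 to 88.0. It held 148 and 142 reads in PV, 62 and 81 in VIP, and 139 and 70 in SST. The SST replicates fell on either side, one near PV and one near VIP. The difference of SST from the average of PV and VIP was 0.03 ± 0.26 on the log2 scale (SE, n = 2 SST against 4 others), with an adjusted p of 0.962 by edgeR's quasi-likelihood test. Without SST replicate 1 it was −0.66 (adjusted p 0.0228) and without SST replicate 2 it was 0.52 (adjusted p 0.0367), so that the sign depended on which replicate was kept. Each of these fits holds a lone SST sample, whose spread is taken from PV and VIP.

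At H2-D1 (chr17:35262692-35263807) the counts were 11 and 7 in PV, 9 and 4 in VIP, and 11 and 4 in SST, a difference of −0.06 ± 0.56 (edgeR adjusted p 0.962). At H2-Ab1 (chr17:34262876-34263753) they were 12 and 19, 18 and 11, and 17 and 15, a difference of 0.05 ± 0.40 (edgeR adjusted p 0.958). Both groups overlapped at these genes. H2-K1 (chr17:33999601-34000702) had 3 and 11, 5 and 1, and 6 and 7 reads and did not pass the filter, yet it had a peak in all 6 samples, as did H2-D1 and H2-Ab1. VIP replicate 2 had 1 read counted at H2-K1 beside a peak of 18.4, so the counts and the peak values, which the authors made in separate steps, did not scale together there. The −log10 q values of these peaks ran from 8.21 to 18.4 at H2-K1, from 7.27 to 17.4 at H2-D1 and from 8.78 to 23.4 at H2-Ab1. H2-Eb1 had a peak in 1 sample, Cd74 in 2 and Ciita in 1, with at most 10 reads in any sample, and second regions near H2-Ab1 and Ciita had no peak and at most 5 reads. With no filter on low counts, the difference was 0.40 at H2-K1, 0.48 at H2-Eb1, 0.27 at Cd74 and −0.87 at Ciita, with edgeR adjusted p of 0.915, 0.919, 0.928 and 0.813.

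**Figure D5:**
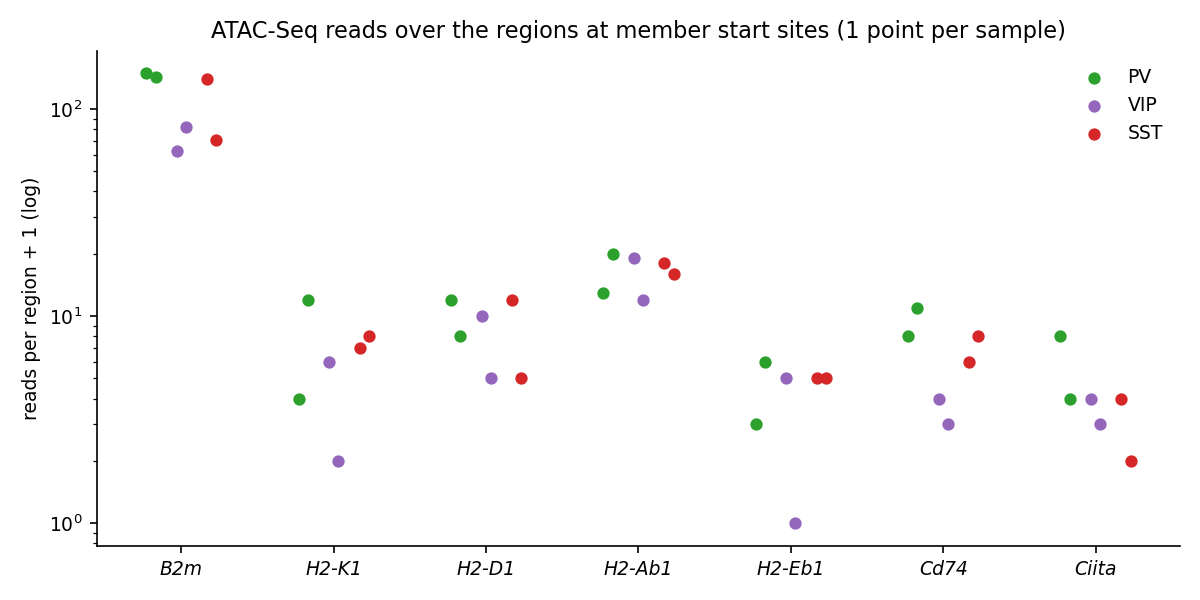
ATAC-Seq reads plus 1 (log axis) in the region nearest the start site of each of 7 members, for the 2 samples each of PV, VIP and SST interneurons. B2m has 62 to 148 reads, with the SST samples on either side, and the other members stay at 19 reads or fewer.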

How the data were processed

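snRNA-Seq covered 1 sample in 10 libraries, and ATAC-Seq 6 samples. For snRNA-Seq the authors sorted inDrops reads of polyadenylated RNA to nuclei and aligned them to a GRCm38 genome that also held each viral barcode. The deposited counts are unnormalized UMIs for each gene in each nucleus. Vector UMIs came from PCR-enriched libraries, which raises them relative to cellular genes. For ATAC-Seq the authors trimmed reads with Trimmomatic 0.33 and aligned them with Subread 1.4.6-p3, as the submitters' processing notes and the study's methods give it, then removed duplicates. They deposited read counts over 323369 reference regions, a phyloP score for each region, and peaks called in each sample by both MACS2 and HOMER with a −log10 q-value. A deposited table of the authors' own specificity ratios was not used, and 0 columns of per-sample values were unmapped.

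The members and gene lists were chosen with earlier results of these data known. Nuclei were kept above 200 non-viral UMIs and gated by marker panels of 7 to 28 genes (at least 2 genes, no tie). Levels are UMIs per 10000 non-viral UMIs, with exact 95% intervals that cover counting error only. Where a count is 0, up to 3 UMIs are allowed. Folds between gates used a pseudocount of 0.1 per 10000, at least 50 UMIs and a limit of 4, or 1.5 between vector bins. Nuclei were thinned without replacement to 400 UMIs for vector bins and to 300 for shares. No doublet caller was run. Of the pathway lists, the text names by value at most the 4 genes highest in microglia and the 2 with the highest ratio of neurons over low barcodes, and of likeness the 5 genes of highest r outside members and panels. Cd86, Cd40 and Ifng were named outside this rule, after their values were seen. Member regions were those within 1000 bases of a GENCODE M21 start site. The ATAC-Seq test was edgeR 4.0.16's quasi-likelihood test in R 4.3.3 over all 6 samples (filterByExpr, TMM, Benjamini-Hochberg at 5%), comparing SST with the average of PV and VIP. By the study's methods each of these samples came from 1 animal. On simulated counts, 153 of 200 regions of 40338 changed by 2 on the log2 scale were recovered (76.5%), with 7 false calls. DESeq2 1.42.0 was an alternative. Other steps ran in python 3.11.15 (scipy 1.17.1, numpy 2.4.6, pandas 2.3.3, biopython 1.88, matplotlib 3.10.9). Imaging, electrophysiology and the library before enrichment were not analysed here, and the values of a few genes that the naming rule covers are not reported here.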

Additional observations from a re-analysis of the deposited data

Results flagged for a closer look

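The summed class I and class II levels of the 5 libraries of a set were compared in each gate with counts, over 41 such groups of 5. In 4 of them the gap between 1 library and the next made up more than 0.71 of the range, which about 1 of 20 groups of a single normal source would show. The members were selected on these levels, so the gaps are a description and no test. Class I in astrocytes was 20.9 UMIs per 10000 (18.2 to 23.9, 216 UMIs among 198 nuclei, of which 58 had a UMI) in library 2 of set 1, where the next library was at 12.7. Class II in endothelium was 9.12 (7.29 to 11.3, 86 UMIs among 66 nuclei, 85 of them in 1 nucleus) in library 2 of set 2, where the next was at 0.210. Class II in inhibitory neurons was 2.06 (44 UMIs among 227 nuclei, 33 of them in 1 nucleus) in library 1 of set 1, with the next at 0.415. Class II in oligodendrocyte precursors was 0.864 in library 2 of set 1, from 1 UMI, with 0 in the others.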

How the results depend on the processing

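Of 659 values under alternatives for 52 results, 471 stayed within the limits of the value reported, 177 moved, 10 changed sign and 1 passed the threshold anew. For 25 of these results (class II in other gates and in parts of the microglia gate, the ratios between sets and the H2-D1 share in neurons), leaving out each library was chosen after seeing the data. The ratio of set 1 to set 2 for H2-D1 in neurons, 1.01 (0.874 to 1.18), fell on either side of 1, at 0.947 to 1.06. Class I in microglia was 71.9 UMIs per 10000 with at least 3 panel genes, 80.6 without a UMI of another panel, 63.9 in nuclei above 500 UMIs, 74.8 as a mean over nuclei, 85.7 in set 1 and 44.0 in set 2, and class II was 149, 169, 167, 139, 218 and 67.7. Alternatives chosen after seeing the data left out nuclei with a UMI of the monocyte and border macrophage list, which gave 28.4 for class I and 22.3 for class II. Class I in neurons was 1.54 without a UMI of another panel, 1.68 as a mean over nuclei, 1.69 in set 1 and 1.51 in set 2, and 1.54 without a UMI of the immune and vascular panels, also chosen later. Class II in neurons was 0.302 with at least 3 panel genes, 0.0759 without a UMI of another panel, 0.481 and 0.0487 in the sets, and 0.0987 without the immune and vascular panels. The H2-D1 share in neurons, whose alternatives were all chosen later, was 72.7% in set 1, 83.4% in set 2 and 81.0% without those panels. The ratio of class I between the highest and lowest vector bin of neurons was 0.999 in set 1 and 0.540 in set 2. For class II in microglia it was 0.314 in nuclei of 400 to 800 UMIs, 0.749 when thinned to 300, 0.566 by vector UMIs per 1000 and 0.165 in set 2. Leaving out 1 library at a time gave 64.6 to 72.9 and 143 to 176 for class I and class II in microglia, 1.57 to 1.62 and 0.195 to 0.277 in neurons, 76.9 to 80.0% for the H2-D1 share, and 0.701 to 0.800 and 0.316 to 0.650 for the 2 ratios. The causes of these moves were not tested.

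Regions called higher and lower in SST numbered 864 and 589 with DESeq2 and 411 and 157 with no filter, against 3288 and 2182. Leaving out 1 ATAC-Seq sample at a time gave 2865 to 4958 and 1544 to 2507, the 4958 without SST replicate 1, and log2 differences of −0.66 to 0.52 at B2m, −1.04 to 0.58 at H2-D1 and −0.18 to 0.28 at H2-Ab1. B2m was −0.0213 with no filter. Replicate numbers were not treated as pairs, since the correlations of same-numbered samples were −0.0366, 0.0233 and 0.0297. With the number as a replicate block 2994 regions were higher and 1935 lower, and B2m was −0.0203. Depth limits the ATAC-Seq regions of H2-K1, H2-Eb1, Cd74 and Ciita, which failed the filter in the reported fit, and class II in neurons and in vector bins.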

Other observations

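Nuclei with at least 2 genes of a dendritic cell list, 27 in all, had class II at 172 UMIs per 10000 (160 to 185), but only 11 of them had a class II UMI, and 10 of the 27 fell in the excitatory neuron gate. Their class I level was 35.7 (30.5 to 41.6), and 6 UMIs of Ciita came from 3 of them. Nuclei with at least 2 genes of a B cell list, 25 in all, had class II at 134, with a UMI in 21, and class I at 48.3. These nuclei were few, and no gate was made for them.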
